A study of Arabidopsis thaliana with 8 samples.

Results

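The 10 genes described here are the Arabidopsis thaliana SQUAMOSA PROMOTER BINDING PROTEIN-LIKE (SPL) transcription factor genes targeted by the microRNA miR156: SPL2, SPL3, SPL4, SPL5, SPL6, SPL9, SPL10, SPL11, SPL13A and SPL15. They were picked by locus identifier as the known targets of miR156, with earlier results of these data known, and all 10 were among the 22546 loci listed in the count files. The study measured leaf mRNA of dcl1 mutant plants and of wild-type (wt) plants by sequencing, and built each RNA sample into a pair of libraries, one with High Definition (HD) adapters and one with standard Illumina (IL) adapters. The 4 groups were dcl1 with HD adapters, dcl1 with IL adapters, wt with HD adapters and wt with IL adapters, with 2 libraries in each. Because the series' design text says that the same RNA was used for both adapters, the 8 libraries stand for 2 RNA samples of dcl1 and 2 of wt. All plants were grown untreated at 25 °C by day and 18 °C by night with 16 h of light, which the dcl1 and wt plants shared. The dcl1 allele, the background strain, the age of the plants and the number of plants in an RNA sample are stated neither in the labels nor in the design text.

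SPL proteins are plant transcription factors that bind DNA through the SBP domain and promote the change from the juvenile to the adult phase, flowering and the spacing of trichomes. In young plants the abundant miR156 pairs with SPL mRNAs, which leads to their cleavage and to reduced translation. As the plant ages miR156 declines and SPL levels go up. DICER-LIKE 1 (DCL1) is the nuclear enzyme that cuts microRNA precursors into mature microRNAs, so a plant with impaired DCL1 is known to hold less of most microRNAs, miR156 included. SPL9 and SPL15 also activate MIR172 genes, whose product acts against the AP2-like floral repressors.

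The pairing between the microRNA and its targets is shown first, because it is what the 10 genes have in common. Sequences were read from the RefSeq genome and annotation of the TAIR10.1 assembly and are written in DNA letters, 5′ to 3′. In the mature microRNA the capitals mark the seed, bases 2 to 8. In the sites the capitals mark the bases that do not pair with miR156a by Watson-Crick rules.
miR156a: tGACAGAAgagagtgagcac
site of SPL2, SPL6, SPL9, SPL10, SPL11, SPL13A and SPL15: gtgctcTctctcttctgtca
site of SPL3: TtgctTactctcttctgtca
site of SPL4: CtgctcTctctcttctgtca
site of SPL5: CCgctcTctctcttctgtca
The same miR156a letters were annotated for 6 of the 14 mature miR156 and miR157 forms, miR156a to miR156f. Among the 10 genes, 7 carried the identical 20-base site with 1 mismatch, opposite base 14 of the microRNA. SPL4 had 2 mismatches, SPL5 had 3, and SPL3 had 2, of which 1 is a G:U pair. None of the 10 sites had a mismatch opposite the seed.

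The position of the site in the mRNA separated the family into the same 2 kinds as the length of the protein. The 7 identical sites lay in coding sequence, in genes with 1065 to 1260 coding bases. The other 3 lay in the 3′ untranslated region of SPL3, SPL4 and SPL5, which have 396, 525 and 546 coding bases. The site began 49 bases after the stop codon in SPL3, 9 bases after it in SPL4 and 6 bases after it in SPL5. On TAIR10.1 the site of SPL3 is at chr2:14305878-14305897 on the plus strand, that of SPL5 at chr3:5140598-5140617 on the minus strand, that of SPL9 at chr2:17589066-17589085 on the plus strand and that of SPL13A at chr5:20582738-20582757 on the minus strand. A site with at most 1 mismatch was found in 8 of 31342 loci with an annotated mRNA (0.0255%). They were these 7 genes and SPL13B, a near-identical copy of SPL13A. With at most 3 mismatches the search found 13 loci (0.0415%), which held all 10 genes, SPL13B, AT3G28690 and AT3G47170. The other 6 SPL genes searched (SPL1, SPL7, SPL8, SPL12, SPL14 and AT1G76580) had at least 6 mismatches in their best match.

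**Figure D1:**
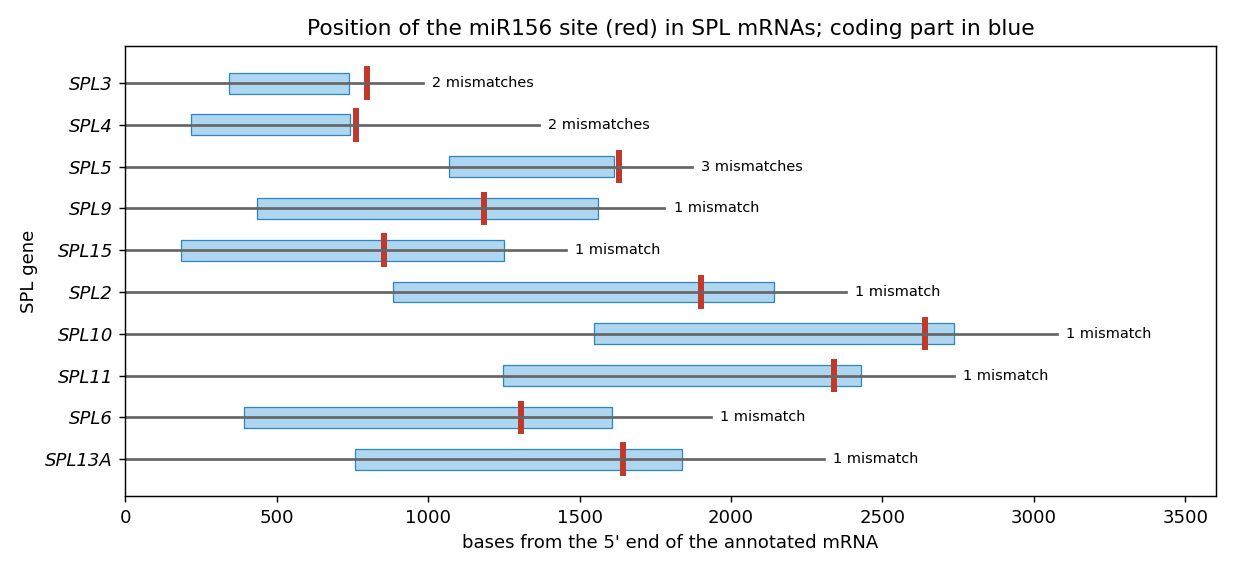
The mRNA of each of the 10 SPL genes is drawn to scale in bases from its 5′ end, with untranslated regions, coding sequence and the miR156 site. The site lies within the coding sequence in 7 genes and just after the stop codon in SPL3, SPL4 and SPL5.

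The 8 libraries held 15772958 to 45929383 counts, and the sums over both libraries of an RNA sample held 43271380 to 80898919. Values are given as CPM, the counts of a locus scaled to the TMM-adjusted size of its library, and per kilobase of exon where levels of different genes are compared. The targeted gene does not check the genotype label here. DCL1 had 22.2 and 25.7 CPM in dcl1 HD libraries and 24.1 and 21.2 CPM in dcl1 IL libraries, against 20.3 and 21.2 CPM in wt HD libraries and 21.3 and 20.2 CPM in wt IL libraries, and edgeR gave an adjusted p of 0.701 for a summed-count log2 fold change of 0.14. A mutant allele can leave the amount of mRNA near its usual level, and which part of DCL1 is altered is not given. Leaf genes were at high levels in every library: the 10 leaf markers (among them the small subunits of Rubisco, Rubisco activase and light-harvesting proteins) summed to 57006 to 65341 CPM in dcl1 and 55384 to 76030 CPM in wt. The 6 flower markers summed to 0 to 0.485 CPM in dcl1 and 0.10015 to 1.58 CPM in wt, with AP1 and LFY at 0 counts throughout, and the 4 shoot meristem markers to 0 CPM in dcl1 and 0 to 0.587 CPM in wt, with WUS, CLV3 and KNAT1 at 0. The 5 root markers summed to 2.12 to 10.04 CPM in dcl1 and 7.90 to 10.1 CPM in wt, and the 4 seed markers to 0 to 0.280 CPM in dcl1 and 0 to 0.211 CPM in wt. In such bulk leaf RNA, more cells that express a gene and more RNA of it per cell cannot be told apart.

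Most of the miR156-targeted SPL genes were higher in dcl1 leaves. In counts summed over adapters, 6 of the 10 passed the test as higher in dcl1 (SPL2, SPL3, SPL4, SPL9, SPL10 and SPL11) and none as lower, where 4.30% of all 19711 loci tested were called higher and 4.55% lower. SPL9 changed the most among these 6, by 5.51-fold, and SPL4 the least, by 1.74-fold. All 10 genes had passed the filter on low counts, and the median log2 fold change over them was 1.501, beside 0.01 over all loci tested. With HD adapters 5 of the 10 were called higher (2.07% of 19521 loci) and none lower (2.26%). With IL adapters 4 were called higher (1.87%) and none lower (2.36%). In 6 of the 10 genes, the same 6 as above, the lowest of the 4 dcl1 libraries exceeded the highest of the 4 wt libraries, an arrangement found in 7.64% of all loci tested. Summed over the 10 genes, the level was 178 and 184 CPM in dcl1 HD libraries and 175 and 175 CPM in dcl1 IL libraries, against 74.4 and 82.3 CPM in wt HD libraries and 80.8 and 91.4 CPM in wt IL libraries.

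**Figure D2:**
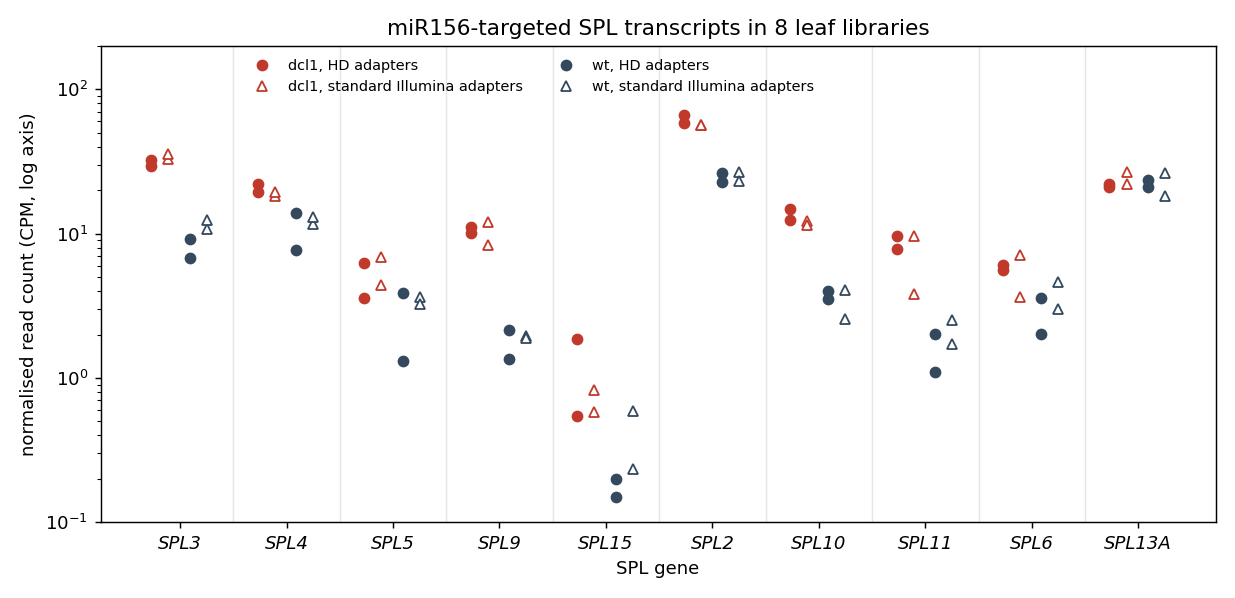
CPM of each miR156-targeted SPL gene in each of the 8 libraries, on a log axis, with dcl1 libraries left of wt libraries and the adapters as separate symbols. SPL2, SPL3, SPL4, SPL9, SPL10 and SPL11 have every dcl1 library above every wt library, and the genotypes overlap in SPL13A.

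The first kind of SPL gene is formed by the small proteins SPL3, SPL4 and SPL5, which consist of little more than the SBP domain and promote flowering. SPL3 (AT2G33810, chr2:14305001-14306072) had 29.6 and 32.2 CPM in dcl1 HD libraries and 33.0 and 35.6 CPM in dcl1 IL libraries, against 9.16 and 6.81 CPM in wt HD libraries and 10.7 and 12.4 CPM in wt IL libraries. The genotypes did not overlap, and the 4 dcl1 libraries lay close together. The summed counts gave 32.7 ± 2.81 CPM in dcl1 and 9.83 ± 0.177 CPM in wt (SD, n = 2 each), a 3.33-fold difference (log2 fold change 1.74, SE 0.179, adjusted p = 6.85e-06). It was called with HD adapters (log2 fold change 1.96, adjusted p = 3.31e-05) and with IL adapters (1.57, adjusted p = 0.000378). SPL3 shares its place in the genome with an antisense non-coding RNA, AT2G33815, on the minus strand at chr2:14305008-14306053, which covers 97.3% of the exon bases of SPL3. The files list the same count for both loci in 8 of 8 libraries, so reads of SPL3 and of its antisense partner cannot be told apart.

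SPL4 (AT1G53160, chr1:19806263-19807705) had 21.996 and 19.4 CPM in dcl1 HD libraries and 18.2 and 19.5 CPM in dcl1 IL libraries, against 7.76 and 14.0 CPM in wt HD libraries and 11.7 and 13.0 CPM in wt IL libraries. The dcl1 libraries were all above the wt libraries, with a narrow gap to the second wt HD library. In summed counts it averaged 20.3 ± 0.944 CPM in dcl1 and 11.6 ± 2.62 CPM in wt (SD, n = 2 each), which edgeR called at an adjusted p of 0.0201 (log2 fold change 0.80, SE 0.205). That call was lost without RNA sample 1 of dcl1 (log2 fold change 0.75, adjusted p = 0.0514) or RNA sample 1 of wt (0.59, adjusted p = 0.118), and SPL4 was not called with HD adapters (0.92, adjusted p = 0.0868) or IL adapters (0.61, adjusted p = 0.315) alone. With HD adapters it was called without the second wt library (1.42, adjusted p = 0.0291) and had 0.58 without the first wt library (adjusted p = 0.565). The microRNA gene MIR156I is annotated on the opposite strand of SPL4, where its mature product is complementary to the site.

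SPL5 (AT3G15270, chr3:5140365-5142323) had the fewest counts of these 3 genes and did not pass the test. It had 6.23 and 3.58 CPM in dcl1 HD libraries and 4.39 and 6.84 CPM in dcl1 IL libraries, against 1.30 and 3.89 CPM in wt HD libraries and 3.61 and 3.25 CPM in wt IL libraries. The groups overlapped, since 2 wt libraries exceeded the lowest dcl1 library. Its log2 fold change in summed counts was 0.92 (SE 0.350, 95% interval 0.18 to 1.65, unadjusted p = 0.0181, adjusted p = 0.123). A neighbour on the other strand, AT3G15260, covers 25.5% of the exon bases of SPL5 and had a log2 fold change of -0.32 (adjusted p = 0.320), and reads in the shared bases cannot be told apart either.

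SPL9 and SPL15 are close relatives that promote the juvenile-to-adult change and flowering at the shoot apex, and SPL9 also slows the making of new leaves. SPL9 (AT2G42200, chr2:17587169-17589671) had 11.1 and 10.1 CPM in dcl1 HD libraries and 12.1 and 8.29 CPM in dcl1 IL libraries, against 1.35 and 2.15 CPM in wt HD libraries and 1.94 and 1.90 CPM in wt IL libraries. Its lowest dcl1 library stood well above its highest wt library. The averages over RNA samples were 10.2 ± 1.72 CPM in dcl1 and 1.84 ± 0.259 CPM in wt (SD, n = 2 each), and the log2 fold change was 2.46 (SE 0.317, 95% interval 1.79 to 3.13, adjusted p = 8.13e-05). It was called with HD adapters (2.58, adjusted p = 0.00201) and with IL adapters (2.40, adjusted p = 0.00379). SPL9 too has a microRNA gene, MIR156J, annotated on the opposite strand across its site, and the files list no MIR156, MIR157 or MIR172 precursor.

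SPL15 (AT3G57920, chr3:21444243-21446035) was the lowest of the 10 genes. It had 1.85 and 0.546 CPM in dcl1 HD libraries and 0.582 and 0.829 CPM in dcl1 IL libraries, against 0.150 and 0.200 CPM in wt HD libraries and 0.587 and 0.234 CPM in wt IL libraries. These values rest on 9 to 86 counts in dcl1 libraries and on 3 to 13 counts in wt libraries, and 1 wt library exceeded 2 dcl1 libraries. The log2 fold change of 1.92 in summed counts came with an SE of 1.04 and a 95% interval of -0.28 to 4.12 (adjusted p = 0.309). SPL15 was thus not called. All of the exon bases of SPL15 are also covered by AT3G57910 on the plus strand, which had a log2 fold change of 0.68 (adjusted p = 0.504). Unlike SPL3 and AT2G33815, SPL15 and AT3G57910 had different counts. Summed over adapters, SPL15 had 97 and 36 counts in dcl1 and 16 and 18 in wt. AT3G57910 had 223 and 93 counts in dcl1 and 63 and 153 in wt. The use of strand in counting is not given, so reads in the shared bases cannot be told apart.

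SPL2, SPL10 and SPL11 form another branch, whose members shape leaves and lateral organs in the adult phase. SPL2 (AT5G43270, chr5:17360287-17363880) had the most CPM of the 10 genes in every dcl1 library, while SPL13A exceeded it in the second wt HD and second wt IL libraries. SPL2 had 58.1 and 66.9 CPM in dcl1 HD libraries and 56.6 and 56.7 CPM in dcl1 IL libraries, against 26.4 and 22.6 CPM in wt HD libraries and 26.6 and 23.1 CPM in wt IL libraries. Every dcl1 library was above 50 CPM and every wt library below 30 CPM. Over RNA samples it averaged 59.3 ± 1.90 CPM in dcl1 and 24.7 ± 2.44 CPM in wt (SD, n = 2 each), a 2.41-fold difference (log2 fold change 1.27, SE 0.157, adjusted p = 5.31e-05). SPL2 was called with HD adapters (1.35, adjusted p = 0.000133) and with IL adapters (1.19, adjusted p = 0.000499).

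SPL10 (AT1G27370, chr1:9505112-9508542) and SPL11 (AT1G27360, chr1:9500892-9504023) are neighbours on chromosome 1 in opposite orientation. SPL10 had 12.5 and 14.9 CPM in dcl1 HD libraries and 12.3 and 11.6 CPM in dcl1 IL libraries, against 4.01 and 3.54 CPM in wt HD libraries and 2.57 and 4.05 CPM in wt IL libraries. Its groups stood apart with both adapters. The summed counts averaged 12.7 ± 0.222 CPM in dcl1 and 3.53 ± 0.405 CPM in wt (SD, n = 2 each), a 3.58-fold difference (log2 fold change 1.84, SE 0.263, adjusted p = 0.000236). SPL10 was called with HD adapters (1.86, adjusted p = 0.00612) and with IL adapters (1.84, adjusted p = 0.00715), but not without the second wt HD library (1.77, adjusted p = 0.0553) or the first wt IL library (1.56, adjusted p = 0.0980).

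SPL11 had 9.66 and 7.83 CPM in dcl1 HD libraries and 3.81 and 9.67 CPM in dcl1 IL libraries, against 1.102 and 2.02 CPM in wt HD libraries and 1.72 and 2.53 CPM in wt IL libraries. The first dcl1 IL library was low among the dcl1 libraries yet above every wt library. Over RNA samples SPL11 averaged 8.56 ± 0.797 CPM in dcl1 and 1.85 ± 0.614 CPM in wt (SD, n = 2 each), a 4.57-fold difference (log2 fold change 2.19, SE 0.348, adjusted p = 0.000609). It was called with HD adapters (2.46, adjusted p = 0.0145) and not with IL adapters (1.66, adjusted p = 0.110), where leaving out that low library gave 2.18 (adjusted p = 0.0440) and leaving out the other dcl1 IL library gave 0.84 (adjusted p = 0.613). The HD call was lost without the first wt HD library (2.13, adjusted p = 0.103) or the first dcl1 HD library (2.31, adjusted p = 0.0593). No stretch of 50 bases is shared between SPL10 and SPL11.

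SPL6 and SPL13A carry the same site as SPL9 and were not called, like SPL15, which also carries it. SPL6 (AT1G69170, chr1:26005068-26007368) had 5.63 and 6.07 CPM in dcl1 HD libraries and 7.14 and 3.62 CPM in dcl1 IL libraries, against 2.003 and 3.59 CPM in wt HD libraries and 3.03 and 4.66 CPM in wt IL libraries. The dcl1 and wt libraries overlapped with IL adapters and did not with HD adapters, with only 2 libraries in each group. Its log2 fold change in summed counts was 0.66 (SE 0.369, 95% interval -0.12 to 1.43, adjusted p = 0.329).

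SPL13A (AT5G50570, chr5:20582083-20584721) had 21.03 and 22.1 CPM in dcl1 HD libraries and 26.9 and 21.9 CPM in dcl1 IL libraries, against 21.2 and 23.5 CPM in wt HD libraries and 18.3 and 26.3 CPM in wt IL libraries. The ranges of the genotypes overlapped. Summed counts averaged 22.5 ± 0.465 CPM in dcl1 and 22.3 ± 3.79 CPM in wt (SD, n = 2 each). The log2 fold change was 0.01 (SE 0.178, adjusted p = 0.983), with a 95% interval of -0.37 to 0.39. That interval overlaps the 95% interval of SPL4 (0.37 to 1.23) and lies below those of the other called genes. Whether the change of SPL13A differs from that of any other gene was not tested. Its copy SPL13B (AT5G50670, chr5:20615565-20618063) averaged 22.2 ± 0.509 CPM in dcl1 and 21.7 ± 3.94 CPM in wt (SD, n = 2 each), with a log2 fold change of 0.03. SPL13B holds 84.7% of the 50-base words of SPL13A, and 100% of the words of SPL13A occur at more than 1 place in the genome. How the authors counted reads that match both copies is not given, so the level of each copy is uncertain. The 7 genes with the identical site thus spanned log2 fold changes of 0.01 in SPL13A to 2.46 in SPL9.

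**Figure D3:**
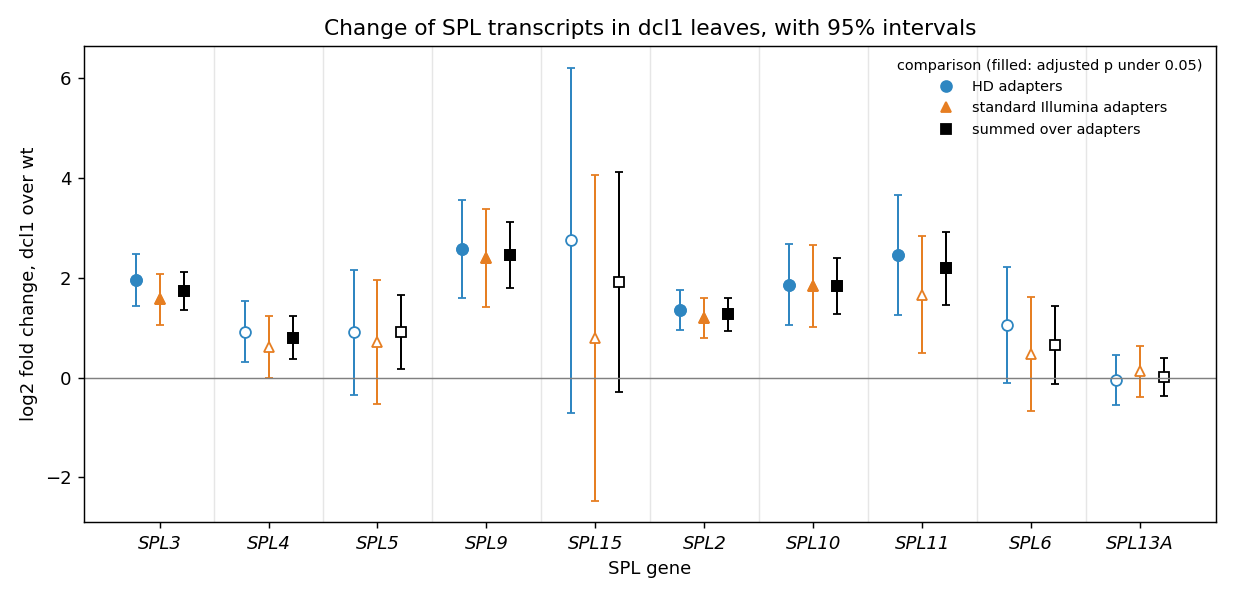
Log2 fold change of dcl1 over wt with its 95% interval for each miR156-targeted SPL gene with HD adapters, with IL adapters and in summed counts. The intervals of SPL2, SPL3, SPL9, SPL10 and SPL11 lie above 0 in all 3 comparisons, and that of SPL15 is the widest.

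Per kilobase of exon, the order of the levels differed between the genotypes. In dcl1 libraries SPL3 was highest with 33.2 ± 2.51 CPM per kilobase, followed by SPL2 with 23.1 ± 1.90, SPL4 with 14.5 ± 1.17, SPL13A with 9.26 ± 1.06 and SPL9 with 5.83 ± 0.903 (SD, n = 4 libraries from 2 RNA samples). The ranges of these 5 genes did not overlap. SPL10 with 4.02, SPL6 with 2.90, SPL11 with 2.83 and SPL5 with 2.81 CPM per kilobase followed, each overlapping its neighbour in that order and SPL10 also overlapping SPL9, and SPL15 was last with 0.655. In wt libraries the leading 4 genes overlapped one another: SPL3 had 9.97 ± 2.42, SPL2 9.56 ± 0.813, SPL13A 8.99 ± 1.36 and SPL4 8.50 ± 2.0003 CPM per kilobase. The 6 others ranged over 1.72 in SPL6 to 0.201 in SPL15, each overlapping its neighbour. SPL13A made up 8.61 to 11.02% of the family's level per length in dcl1 libraries and 16.9 to 22.4% in wt libraries. Its own log2 fold change was 0.01 in summed counts. The levels of SPL13A and SPL3 are uncertain, because their reads cannot be told apart from those of SPL13B and AT2G33815. Those of SPL15 and SPL5 are uncertain too, because AT3G57910 covers 100% of the exon bases of SPL15 and AT3G15260 covers 25.5% of those of SPL5. SPL9 made up 4.69 to 6.90% in dcl1 libraries and 1.997 to 2.83% in wt libraries.

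None of the 10 genes was called as different between the adapters. The edgeR comparisons below treat the HD and IL libraries of an RNA sample as independent. With a block by RNA sample none of the 10 was called either. The median log2 fold change of dcl1 over wt over the 10 genes was 1.61 with HD adapters and 0.99 with IL adapters. The difference between adapters in the log2 fold change of dcl1 over wt, tested as an interaction, lay at -0.18 to 1.95 over the 10 genes and was positive in 9 of them (median 0.25), with none called by edgeR (0.0256% of all loci were called), none at an unadjusted p under 0.05 and none by DESeq2. For SPL15, the gene with the upper value, the log2 fold change was 2.75 with HD adapters and 0.80 with IL adapters, from the few counts given above. Between HD and IL libraries of dcl1, the 10 log2 fold changes were -0.19 to 0.77 (median 0.13, 7 positive), with none called (0.174% of all loci), none at an unadjusted p under 0.05 and none by DESeq2. Between HD and IL libraries of wt they were -1.18 to 0.17 (median -0.28, 1 positive), again with none called by edgeR (0.251% of all loci) or DESeq2. SPL3 was the 1 gene with an unadjusted p under 0.05 there, with a log2 fold change of -0.54 (unadjusted p = 0.0397, adjusted p = 1). The HD and IL comparisons of dcl1 with wt use the same RNA and are not independent of each other.

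The SPL genes without a miR156 site were not called by edgeR within either adapter or in summed counts. In summed counts 5 of these 6 were tested, 1 had an unadjusted p under 0.05, and their log2 fold changes were -0.18 to 0.43 with a median of 0.06. The upper value belonged to SPL1, an SPL gene linked to heat tolerance of flowers, which is named after its value was seen. SPL1 had 125 and 118 CPM in dcl1 HD libraries and 119 and 122 CPM in dcl1 IL libraries, against 102 and 91.3 CPM in wt HD libraries and 81.0 and 92.5 CPM in wt IL libraries. Its dcl1 libraries were all above its wt libraries, as in 7.64% of all loci tested. SPL1 missed the threshold in edgeR's test of summed counts (log2 fold change 0.43, SE 0.142, adjusted p = 0.0731). It passed in DESeq2 (adjusted p = 0.0250) and in edgeR without summing (adjusted p = 0.0177), which counts both libraries of an RNA sample as independent.

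Genes known to act downstream of SPL proteins were measured in part. Of the 9 listed, 6 were tested in summed counts, 2 were called higher in dcl1 (4.30% of all loci tested) and none lower (4.55%). FRUITFULL (FUL), a MADS-box gene that SPL9 and SPL3 bind and activate, had 7.25 and 10.6 CPM in dcl1 HD libraries and 6.40 and 7.09 CPM in dcl1 IL libraries, against 1.80 and 2.82 CPM in wt HD libraries and 2.76 and 1.73 CPM in wt IL libraries. Its log2 fold change in summed counts was 1.75 (SE 0.331, adjusted p = 0.00246). AGL42, a MADS-box relative of the flowering gene SOC1, had 10.2 and 9.95 CPM in dcl1 HD libraries and 7.46 and 9.70 CPM in dcl1 IL libraries, against 0 and 0.724 CPM in wt HD libraries and 1.35 and 0.632 CPM in wt IL libraries. Both genes were higher in every dcl1 library than in any wt library, as were 7.64% of all loci tested. AGL42 was 3.80 higher on the log2 scale in summed counts (SE 0.358, adjusted p = 2.83e-06), a 13.9-fold difference. With 1 adapter alone, FUL was called with HD adapters (1.93, adjusted p = 0.0338) and not with IL adapters (1.60, adjusted p = 0.0877, and 0.0285 in DESeq2), and AGL42 with both (4.6, adjusted p = 0.000896, and 3.14, adjusted p = 0.0133). The FUL call with HD adapters was lost without the first wt (1.67, adjusted p = 0.207), the second wt (2.30, adjusted p = 0.0672) or the second dcl1 HD library (1.64, adjusted p = 0.262), and the AGL42 call with IL adapters without the second wt IL library (2.66, adjusted p = 0.114). Without the first wt IL library AGL42 was called at 3.76 with IL adapters, and without the first wt HD library, which had 0 counts, at 3.81 with HD adapters, also called. Without the second wt HD library the only wt HD library left had 0 counts, so the fitted value of 11.16 depends on the prior count and is no measure of size.

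The floral integrators in the same list did not pass. SOC1 had a log2 fold change of 0.32 (adjusted p = 0.236), and FT one of -0.98 (adjusted p = 0.794). TRIPTYCHOME (TRY), a repressor of trichome formation, had 36 and 14 counts in dcl1 HD libraries and 0 and 1 counts in dcl1 IL libraries, against 1 and 0 counts in wt HD libraries and 0 and 0 counts in wt IL libraries. Its counts thus lay in the dcl1 HD libraries, and it was not called in summed counts (adjusted p = 0.125) or in the interaction of genotype and adapter. LFY, AP1 and DFR were not tested, because their counts were below the filter.

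The lists around the SPL genes had few calls. Of the 6 AP2-like targets of miR172, none was called in summed counts by edgeR, 2 had an unadjusted p under 0.05, and the median log2 fold change was -0.30, with AP2 at -0.71 (adjusted p = 0.0914) and SNZ at -1.18 (adjusted p = 0.200). SNZ was at -0.13 with HD adapters (adjusted p = 0.968) and -3.13 with IL adapters (adjusted p = 0.0814), and the interaction was not called (unadjusted p = 0.0321). Among the regulators of MIR156 transcription, 8 of 9 were tested, none was called, 1 had an unadjusted p under 0.05 and the median was 0.07. Of the 6 genes of the microRNA machinery, AGO1 was called higher in summed counts (4.30% of all loci tested) and none lower (4.55%). AGO1 is the protein that holds microRNAs on their targets, and its own mRNA is a target of miR168. It had 246 and 252 CPM in dcl1 HD libraries and 231 and 238 CPM in dcl1 IL libraries, against 65.0 and 75.3 CPM in wt HD libraries and 73.4 and 73.5 CPM in wt IL libraries, which is 1.76 higher on the log2 scale in summed counts (SE 0.144, adjusted p = 6.35e-07).

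**Figure D4:**
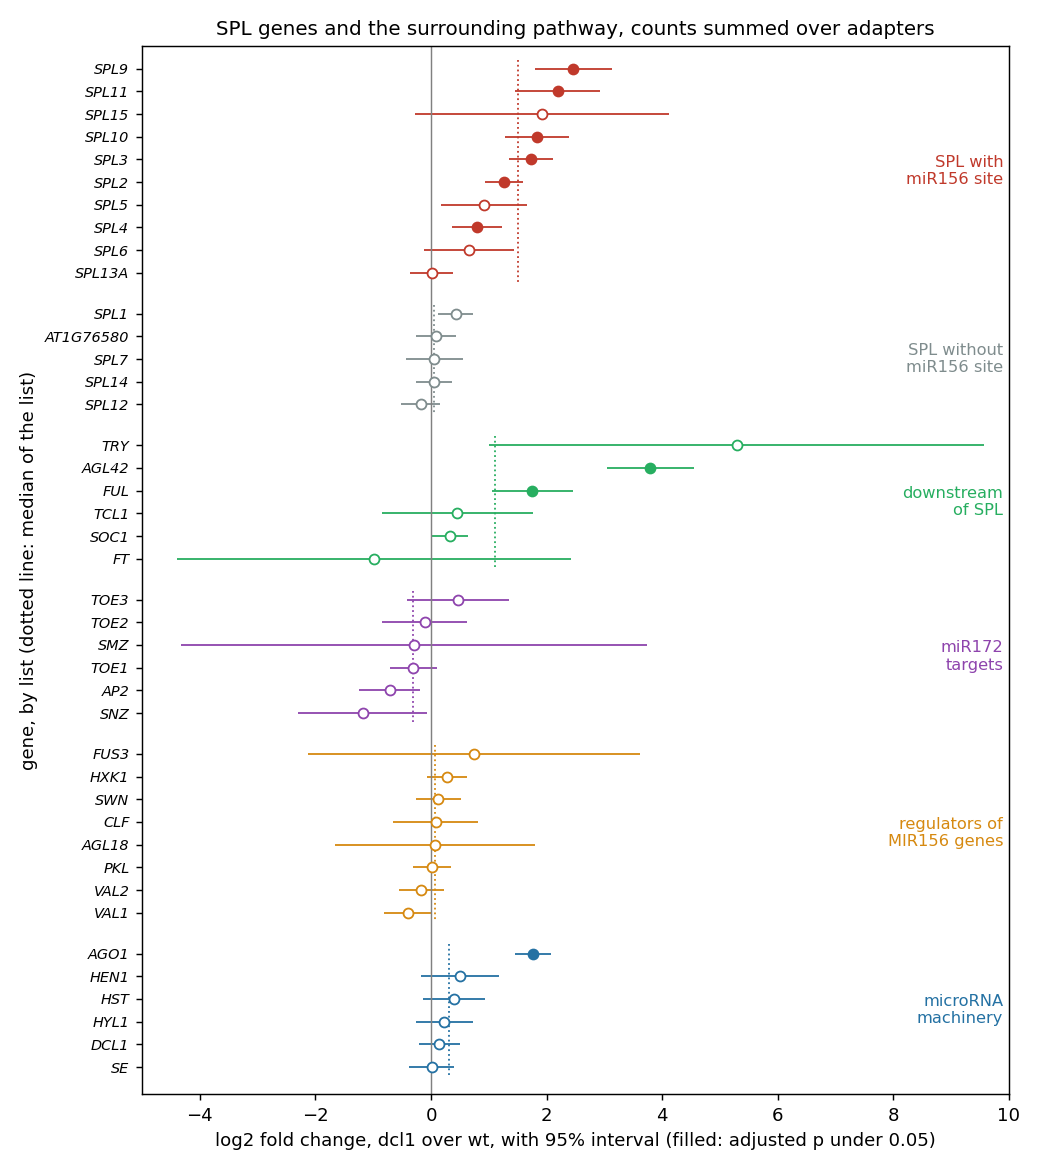
Log2 fold change of dcl1 over wt in summed counts with its 95% interval, 1 row per gene, for the miR156-targeted SPL genes and the lists around them, with filled points for adjusted p under 0.05 and a dotted line at each list's median. Filled points are 6 of the 10 miR156-targeted genes, AGL42 and FUL downstream, and AGO1.

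AGO1 was also the locus whose pattern was most like that of the SPL genes. Over the 8 libraries, its CPM had a Pearson correlation of 0.997 with the summed CPM of the 10 genes, the highest of the 9015 loci with a mean of at least 10 CPM. It was followed by AT1G75280, with a correlation of 0.992 and a log2 fold change of 2.03, and by PWD (AT5G26570), a phosphoglucan water dikinase of starch breakdown, with 0.990 and 0.66. The 8 points share 4 RNA samples and fall into the 2 genotypes, and no p is given.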

How the data were processed

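Leaf mRNA was sequenced in 8 libraries, and the deposited files give raw read counts per locus as the authors made them, per the labels on TAIR10. The aligner, the counting program, its use of strand and its handling of reads with several matches were not given in the sources used here. Files list no locus at 0, so an unlisted locus was taken as 0. Counts were scaled by TMM, filtered with filterByExpr and tested with edgeR 4.0.16 (quasi-likelihood F test, two-sided, Benjamini-Hochberg adjustment over all loci tested, adjusted p under 0.05). Genotypes were compared within each adapter in 1 model of 4 groups over 8 libraries (19521 loci), and in 4 sums of the HD and IL libraries of an RNA sample (19711 loci). Standard errors are the log2 fold change over the square root of F. The 4 ribosomal RNA loci took 17.3 to 28.7% of counts and remained in the library totals. Replicate libraries differed by more than counting noise (chi-square over its degrees of freedom 26.6 to 50.5). Nothing in the labels says that replicates came from separate plants, so p-values measure only how these samples vary among themselves, and that spread may be technical.

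The design text says that the same RNA was used for both adapters, and HD and IL libraries were matched by replicate number. The correlation of their deviations from the group means was 0.07 in dcl1 and 0.20 in wt over 12815 loci. If replicate numbers do not match across adapters, the sums mix RNA samples. Numbers do not pair dcl1 with wt. Alternatives were DESeq2 1.42.0, its size factors, no filter, omission of ribosomal loci, a replicate block and leaving out each library. The fits were also run on simulated data. Every library was drawn independently there, so that run cannot bear on the RNA shared between adapters. The 10 genes and all lists were chosen with earlier results of these data known. Genes named beside them are the copy of SPL13A, overlapping loci, called list members, DCL1 and the 3 loci most alike in CPM. Others (SPL1, SOC1, FT, TRY, AP2, SNZ) were chosen after their values were seen. Loci with a site were counted from the best match in any annotated mRNA. Site positions and mismatches of SPL genes are those of the longest coding isoform. Both use RefSeq's TAIR10.1 annotation, which may differ from the one the authors counted with.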

Additional observations from a re-analysis of the deposited data

How the results depend on the processing

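The number of the 10 SPL genes called higher in dcl1 was 6 in summed counts, 5 with HD adapters and 4 with IL adapters. With 1 library or RNA sample left out it was 5 to 6 in summed counts, 4 to 5 with HD adapters and 3 to 5 with IL adapters. The replicate block gave the same 6, 5 and 4, though it links dcl1 with wt by numbers that do not pair them. DESeq2, its size factors and the omission of ribosomal loci gave the same counts too. Without the low-count filter SPL4 joined the HD calls (adjusted p = 0.0405). No alternative called any of the 10 lower in dcl1, in the interaction or between adapters. Within these 3 comparisons the sign of a log2 fold change reversed when 1 library was left out in SPL13A (HD -0.10 to 0.026, IL -0.11 to 0.41, summed -0.15 to 0.19), SPL13B (HD -0.052 to 0.043, IL -0.14 to 0.46, summed -0.14 to 0.22) and SPL6 (IL -0.089 to 0.89). Over all loci, the calls higher in dcl1 were 404 with HD adapters (211 to 650 over the alternatives), 366 with IL adapters (143 to 563) and 848 in summed counts (636 to 1194). Those lower in dcl1 were 442 with HD adapters (250 to 682), 460 with IL adapters (257 to 699) and 896 in summed counts (812 to 1185). A replicate block by RNA sample raised the loci called between adapters to 275 in dcl1, against 34 without it, and to 185 in wt, against 49, and those of the interaction to 36, against 5. None of the 10 genes was among them, and the cause was not tested. The values of SPL15 rest on few counts, 3 to 13 in wt libraries.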
